A study of Mus musculus with 4 samples.

Results

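The genes described here are 10 genes of prohormone processing and granule cargo, Pcsk1, Pcsk2, Scg5, Cpe, Pam, Chga, Chgb, Scg2, Scg3 and Vgf, out of 23235 gene symbols in the deposited tables. They were chosen by name, and each has 1 row with a valid value in every library. RNA was sequenced from isolated pancreatic islets, the hormone-secreting cell clusters of the pancreas, of C57BL/6 mice. There were 4 groups: KR mutant mice refed after a fast, wild type (WT) mice refed after a fast, fasted KR mice and fasted WT mice. From the study, KR stands for a knock-in allele of Foxo1 whose protein carries arginine in place of lysines that are normally acetylated. Sample titles give 48 h of fasting, with 6 h of refeeding in the refed groups, while the extraction protocol gives a 24 h fast. Each group is 1 pooled library without a replicate, and the labels mention 3 mice of each genotype without making clear whether that is the number behind each library. Neither age nor sex is given in the labels.

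A peptide hormone is made as a longer precursor that is cut and trimmed inside the secretory granule. Prohormone convertases cut after pairs of basic residues, a carboxypeptidase removes the exposed basic residues, and an amidating enzyme modifies the ends of some peptides. Granins are acidic proteins stored with the hormones, and they help condense cargo and form the granule. In islets, the alpha, beta, delta and PP cells all carry such granules, so these transcripts belong to several cell types at once.

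Levels are FPKM, fragments scaled by transcript length and library total, with the deposited lower and upper bounds. Depth relative to the fasted WT library, judged from those bounds, was 0.418 in refed KR, 0.683 in refed WT and 1.01 in fasted KR. Bounds cover counting error only, and for the 10 genes the upper bound lay 0.427% to 11.8% above the level, farthest for Vgf in refed KR. Defining hormones of 4 endocrine cell types were present in all libraries. Summed over 8 beta-cell markers without Ins2, which has no valid value in fasted KR, FPKM was 80669.5 in refed KR, 57441 in refed WT, 55112 in fasted KR and 40481 in fasted WT. The 5 alpha-cell markers summed to 25759, 27010.1, 26889.6 and 21941 in the same order. Each sum is mostly 1 hormone gene. Without Iapp the beta-cell sum was 13694.7 in refed KR, 4657 in refed WT, 8985 in fasted KR and 5018 in fasted WT, most of it Ins1. Without Gcg the alpha-cell sum was 877, 849, 859 and 683 in the same order, most of it Ttr. The 2 PP-cell markers summed to 20941, 20831, 13856 and 14927 in the same order, and the 3 delta-cell markers to between 2824 and 3437. Markers of endothelium (5 genes) summed to between 5.36 and 16.0, and those of stellate cells and fibroblasts (4 genes) to between 13.4 and 25.3. Macrophage markers (5 genes) summed to between 218 and 268, and acinar markers (5 genes) to between 35.1 and 60.8. Duct markers (4 genes) summed to between 474 and 591, and without Krt7 to between 61.1 and 69.9. Chromaffin and sympathetic cells also carry granins. The 7 markers of neurons, chromaffin cells and glia summed to 66.2 in refed KR, 49.5 in refed WT, 43.7 in fasted KR and 32.0 in fasted WT. Most of this was Th, the first enzyme of catecholamine synthesis, at 60.1, 43.2, 36.6 and 23.3 in the same order, while the later enzymes Dbh and Pnmt had an FPKM of at most 0.135. Th rose with refeeding by 0.78 on the log2 scale and was higher in KR by 0.55 (adjusted p = 3.89e-05 and 0.00792). In such bulk samples, fewer cells of a type and less RNA per cell cannot be told apart.

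Most of the 10 genes belonged to the most abundant transcripts of the islet. In each library 7 of them ranked among the top 100 genes. Their FPKM summed to 14283 in refed KR, 13145 in refed WT, 14175 in fasted KR and 12769 in fasted WT. Chga, which encodes chromogranin A, was the highest, at rank 10 in refed KR, 9 in refed WT, 8 in fasted KR and 7 in fasted WT. Together Chga, Scg2 and Cpe made up 64.7% of the sum in refed KR, 66.4% in refed WT, 68.2% in fasted KR and 69.2% in fasted WT. Scg2 (secretogranin II) lay above Cpe in all 4 libraries, by a wide margin in the refed ones and with bounds that only just parted in fasted WT (2169 to 2193 against 2132 to 2158). Chgb (chromogranin B) and Scg5 had overlapping bounds in fasted WT, at 967 to 982 and 957 to 982, and in the other libraries Scg5 was the higher. Pam and Pcsk1 lay well below these, and Vgf, which encodes a neuropeptide precursor of the granin group, was the lowest, at rank 6495 in refed KR and rank 4538 in fasted WT.

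**Figure D1:**
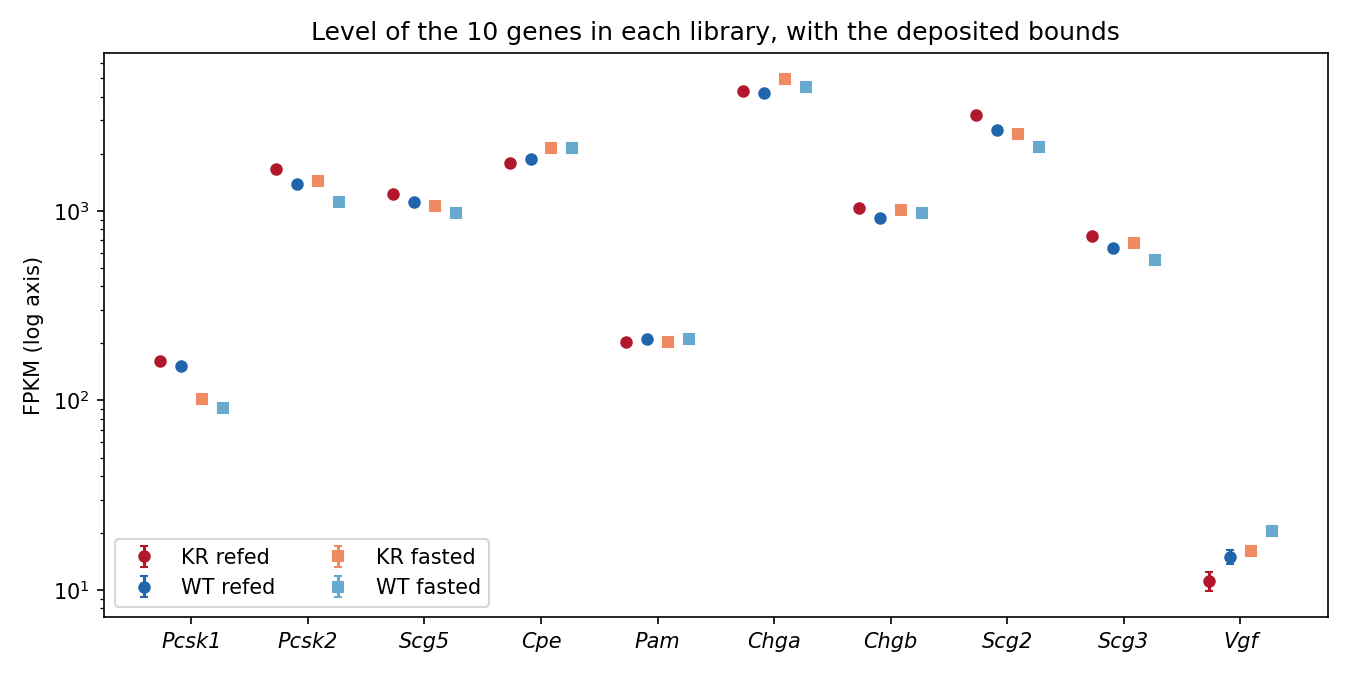
FPKM (log axis) of the 10 genes in the 4 libraries, 1 point per library, with the deposited lower and upper bounds as bars, which are often smaller than the point. Levels span from 11.2 for Vgf in refed KR to 4963 for Chga in fasted KR, and the order of the genes changes little between libraries.

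Promoter sequences were looked up because cyclic AMP response elements are known from several granin and convertase genes. RefSeq promoters of build GRCm38.p6, 250 bases before to 50 bases after the transcript start, were at hand for 8 of the 10 genes, without Cpe and Vgf. Each motif was searched on both strands. The full palindromic element TGACGTCA was present in 3 of the 8, Pcsk1, Scg2 and Chgb, against 1.79% of 32851 promoters and 2.03% of the 27025 genes they belong to. Its first base lay 78 bases before the start in Pcsk1, 68 in Scg2 and 72 in Chgb. The shorter element TGACG, which the full one contains, was in 7 of the 8 genes, all but Pam, against 20.8% of promoters and 23.0% of genes. A forkhead-type motif, GTAAACA, was searched since FoxO1 is the mutated factor, and it occurred in Pcsk1 alone of the 8, with its first base 44 bases before the start, against 3.65% of promoters and 4.05% of genes. The motif TATAAA occurred in Chga alone, beginning at transcript base 6, against 13.6% of promoters and 15.7% of genes. A match is a description of these letters and no evidence of binding. Below are the 120 bases before the start of the 3 genes with the full element, 5′ to 3′, with TGACGTCA and, in Pcsk1, GTAAACA in capitals.
Pcsk1, chr13:75089737-75089856, plus strand: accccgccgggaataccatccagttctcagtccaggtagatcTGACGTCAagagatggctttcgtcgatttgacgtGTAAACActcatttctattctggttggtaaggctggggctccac
Scg2, chr1:79440027-79440146, minus strand: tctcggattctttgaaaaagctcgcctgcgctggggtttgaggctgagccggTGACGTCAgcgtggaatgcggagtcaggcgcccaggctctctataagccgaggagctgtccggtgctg
Chgb, chr2:132781522-132781641, plus strand: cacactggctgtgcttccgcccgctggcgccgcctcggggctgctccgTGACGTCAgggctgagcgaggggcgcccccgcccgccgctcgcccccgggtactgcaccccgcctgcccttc

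Refed islets were set against fasted ones to see which transcripts follow feeding. After refeeding, both convertase genes and the granin-family genes Scg2, Scg3 and Scg5 rose, whereas Cpe, Chga and Vgf fell. Pcsk1 moved the most, 1.62-fold up, and Pam and Chgb did not pass the test. In all, 8 of the 10 passed, 5 higher and 3 lower, beside 56.9% of all 11953 tested genes (27.7% higher, 29.2% lower). Among the 915 genes that averaged an FPKM of 100 or more, a subset chosen after values were seen, 78.6% passed (60.2% higher, 18.4% lower). This subset holds 9 of the 10 genes, all but Vgf. The share of the 10 genes that passed is near that of abundant genes. The test was limma on log2(FPKM + 1) over the 4 libraries in an additive model of feeding and genotype, with Benjamini-Hochberg adjustment over all genes. This model has 1 residual degree of freedom per gene and takes the difference between the genotypes' responses as error, so its p-values rest mainly on the spread borrowed from other genes. Errors are its moderated standard errors over 4 libraries. Without the trend, Scg5, Scg3 and Chga lost the call, and with no filter on low values Pcsk1 and Vgf alone kept it. Cell markers moved with refeeding too: of those tested, 5 of 8 beta-cell markers and 2 of 2 PP-cell markers rose, 1 of 5 alpha-cell markers rose and 2 fell, and 3 of 4 endothelial markers and 4 of 4 stellate cell and fibroblast markers fell. Of the other lists, 2 of 3 duct markers, 1 of 1 acinar marker and 1 of 3 delta-cell markers rose, and 2 of 5 macrophage markers fell. Of the 3 tested markers of neurons, chromaffin cells and glia, Th rose and 1 fell. The part of all these cell markers in the results below was not tested.

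Pcsk1 encodes a convertase that starts the cutting of proinsulin in beta cells. It lies on chromosome 13 at 75227434 to 75269946 in build mm9. Its FPKM was 161 in refed KR and 153 in refed WT, against 102 in fasted KR and 91.6 in fasted WT. Both refed libraries were well above both fasted ones, and the counting bounds were far apart. The log2 difference was 0.69 ± 0.06 (SE, adjusted p = 2.94e-05), and it passed in all 6 alternative fits. Pcsk1 was the only one of the 10 genes at least 1.5-fold apart between refed and fasted, in the KR pair (log2 ratio 0.66, counting interval 0.60 to 0.71) as in the WT pair (0.73, 0.68 to 0.78). Of all tested genes, 12.9% in KR and 16.1% in WT were that far apart, 4.67% and 6.89% in the upward direction. None of the 10 reached 2-fold, against 2.33% of genes in KR and 3.51% in WT.

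Pcsk2, on chromosome 2 at 143371868 to 143642018, encodes the convertase that alpha cells use to make glucagon and that also acts on proinsulin. Its FPKM was 1658 in refed KR and 1379 in refed WT, against 1441 in fasted KR and 1117 in fasted WT. Refed was higher within each genotype, but the groups overlapped, because fasted KR lay above refed WT. The difference was 0.25 ± 0.05 (adjusted p = 0.00332). Scg5, on chromosome 2 at 113616469 to 113669248, encodes the chaperone that the Pcsk2 protein needs to mature. Its FPKM was 1227 in refed KR and 1111 in refed WT, against 1060.1 in fasted KR and 969.5 in fasted WT. Here the feeding states did not overlap, and the difference was 0.20 ± 0.05 (adjusted p = 0.00744).

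The balance between the convertase transcripts was read from their ratio. The FPKM of Pcsk1 was 9.71% of that of Pcsk2 in refed KR, 11.1% in refed WT, 7.05% in fasted KR and 8.20% in fasted WT. Pcsk1n encodes proSAAS, a granin-like protein whose peptide inhibits the Pcsk1 enzyme, and it went the other way. Its FPKM was 252 in refed KR and 246 in refed WT, against 449 in fasted KR and 317 in fasted WT, and it fell with refeeding by 0.60 ± 0.09 on the log2 scale (adjusted p = 0.000831). Per unit of Pcsk1, there was 1.57 of Pcsk1n in refed KR, 1.61 in refed WT, 4.42 in fasted KR and 3.46 in fasted WT. The ratio of Pcsk1n to Pcsk1 differed little between genotypes after refeeding and more in the fasted state. That of Pcsk1 to Pcsk2 was lower in KR in both states. There was no replicate to judge either ratio.

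**Figure D2:**
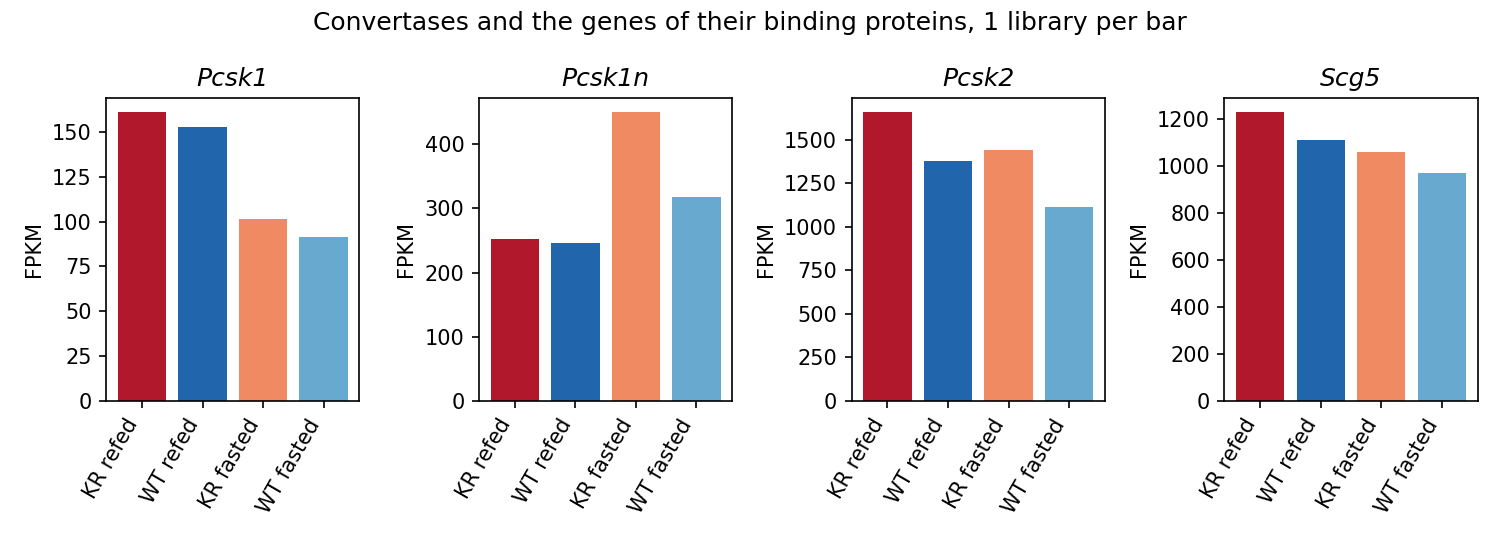
FPKM (linear axes from 0) of Pcsk1, Pcsk1n, Pcsk2 and Scg5, 1 bar per pooled library. Pcsk1 is higher and Pcsk1n lower in both refed libraries, and Pcsk1n reaches 449 in fasted KR.

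Cpe, on chromosome 8 at 67071348 to 67171837, encodes carboxypeptidase E, which trims the basic residues left by the convertases. Its FPKM was 1787 in refed KR and 1886 in refed WT, against 2154 in fasted KR and 2145 in fasted WT. Both refed libraries were below both fasted ones, and Cpe fell by 0.23 ± 0.05 (adjusted p = 0.00505), opposite to the convertases. Pam, on chromosome 1 at 99717670 to 99992209, encodes the amidating enzyme. Its FPKM was 203 in refed KR and 210.4 in refed WT, against 204 in fasted KR and 209.9 in fasted WT. The refeeding log2 ratio lay within counting error of 0, with an interval of -0.04 to 0.03 in KR and -0.03 to 0.03 in WT, and Pam did not pass the test (0.00 ± 0.05 on the log2 scale, adjusted p = 0.978).

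Of the granin genes, some rose, some fell and Chgb did not pass the test. Scg2, on chromosome 1 at 79431243 to 79436665, was measured at an FPKM of 3185 in refed KR and 2667 in refed WT, against 2549.6 in fasted KR and 2181 in fasted WT. It rose without overlap, by 0.31 ± 0.05 (adjusted p = 0.000888). Chga, on chromosome 12 at 103793178 to 103803237, was measured at an FPKM of 4275 in refed KR and 4176 in refed WT, against 4963 in fasted KR and 4511 in fasted WT. It fell without overlap, by 0.16 ± 0.05 (adjusted p = 0.025). Chga thus stood at 1.34 times the level of Scg2 in refed KR and 1.57 times in refed WT, against 1.95 times in fasted KR and 2.07 times in fasted WT.

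Scg3, on chromosome 9 at 75491172 to 75531863, encodes secretogranin III, which binds chromogranin A and carboxypeptidase E at the granule membrane. Its FPKM was 737 in refed KR and 635 in refed WT, against 675 in fasted KR and 549 in fasted WT. It was higher after refeeding within each genotype, but the groups overlapped. It rose by 0.17 ± 0.05 (adjusted p = 0.0219). Chgb, on chromosome 2 at 132607013 to 132620808, was measured at an FPKM of 1038 in refed KR and 912 in refed WT, against 1009.9 in fasted KR and 974 in fasted WT. Its ratio was positive in KR and negative in WT, and its fitted difference was -0.03 ± 0.05, which missed the threshold (adjusted p = 0.688). Vgf, on chromosome 5 at 137506164 to 137509221, was measured at an FPKM of 11.2 in refed KR and 15.0 in refed WT, against 16.1 in fasted KR and 20.5 in fasted WT. It fell without overlap by 0.46 ± 0.07 (adjusted p = 0.000717) and passed in all 6 alternative fits, as Pcsk1 did.

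Counted by overlap alone, 6 of the 10 genes had both refed libraries on 1 side of both fasted ones, 3 higher (Pcsk1, Scg2 and Scg5) and 3 lower (Cpe, Chga and Vgf). That was so for 75.7% of all tested genes, 36.9% higher and 38.8% lower. The deposited bounds of refed and fasted parted for 9 of the 10 genes in each genotype, beside 52.0% of genes in KR and 61.1% in WT. The exception was Pam in both. Such abundant genes have narrow bounds, so these counts speak of counting error and not of animals. Of the 3 genes with a full TGACGTCA element, Pcsk1 and Scg2 rose and Chgb did not pass. A link between the element and refeeding was not tested.

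**Figure D3:**
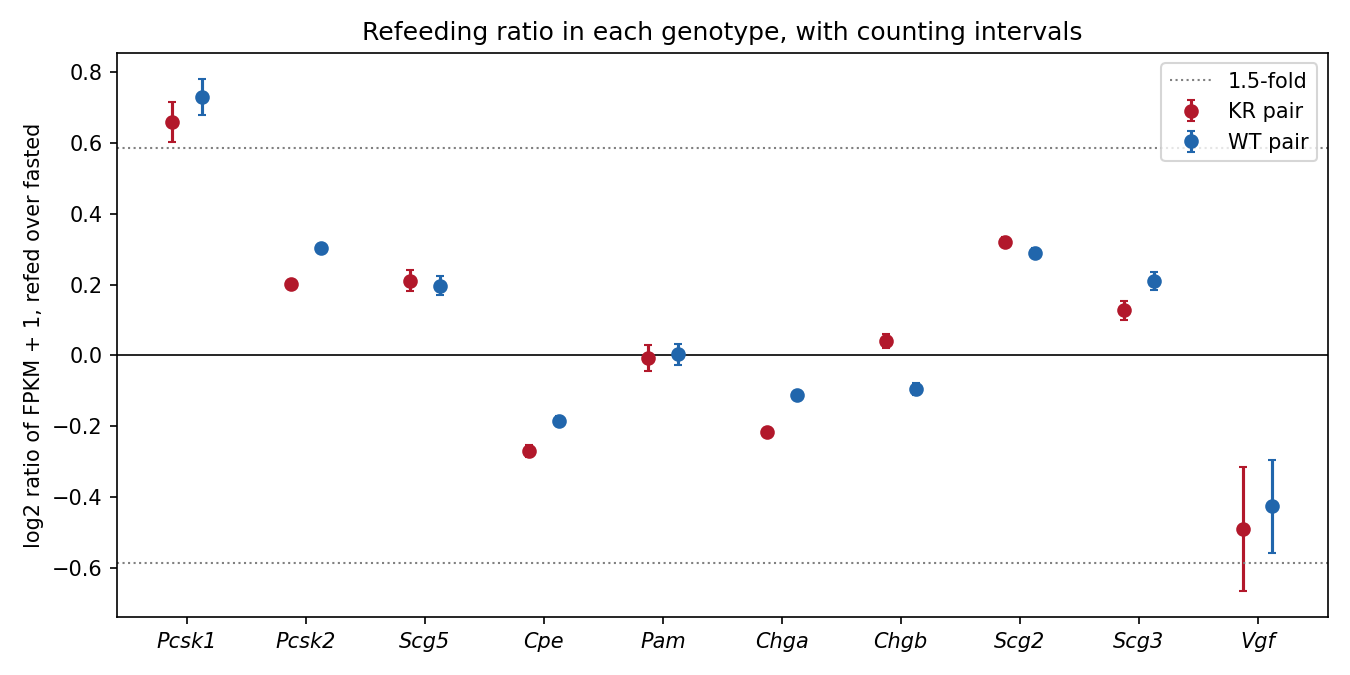
Log2 ratio of FPKM + 1, refed over fasted, for each gene in the KR pair and the WT pair, with counting intervals from the deposited bounds and dotted lines at 1.5-fold. Pcsk1 alone lies past 1.5-fold, at 0.66 in KR and 0.73 in WT, and Chgb is the gene whose ratio has opposite signs with intervals that exclude 0, at 0.04 and -0.09.

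Whether the response to refeeding differed between genotypes cannot be tested with 1 library per group. For 6 of the 10 genes the counting interval of the difference between the ratios excluded 0, beside 23.2% of all tested genes and 46.8% of the genes averaging an FPKM of 100 or more. The refeeding ratio was lower in KR than in WT for Pcsk2 (-0.10 on the log2 scale), Cpe (-0.08), Chga (-0.10) and Scg3 (-0.08), and higher for Chgb (0.13) and Scg2 (0.03). Pcsk2 and Scg3 thus rose less in KR than in WT, whereas Cpe and Chga fell more. For Pcsk1 the difference was -0.07 with an interval of -0.15 to 0.01, and for Vgf -0.06 with an interval of -0.28 to 0.15. The difference of Chgb was the largest of the 10.

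KR islets were set against WT islets to see which of these transcripts differ between the genotypes. Differences were small: none of the 10 genes was 1.5-fold apart in the refed or in the fasted pair, beside 1.42% and 1.11% of all genes. Pcsk2 alone passed the test, beside 1.26% of all tested genes (0.602% higher). Of the genes averaging an FPKM of 100 or more, 4.81% passed (1.75% higher). After rescaling by the median of ratios, 86 of all tested genes were higher in KR and 51 lower, against 72 and 79 as deposited. Pcsk2 rose in KR by 0.32 ± 0.05 (adjusted p = 0.029), with both KR libraries, at 1658 and 1441, above both WT ones, at 1379 and 1117. Over 6 alternative fits its adjusted p ran from 1.21e-17 to 0.419, and it passed in 4. Both the fit without trend and the fit with no filter on low values lost the call. The beta-cell marker sum, with or without Iapp, was also higher in KR in both feeding states, with 5 of 8 tested markers higher by the test. Gcg, which makes up most of the alpha-cell sum, was lower in KR after refeeding and higher in KR when fasted, and without it the alpha-cell sum was higher in KR in both. None of the 5 alpha-cell markers passed between genotypes, and Rbp4 of the 3 delta-cell markers and Th were higher in KR. The part of cell composition in the Pcsk2 difference was not tested.

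Scg3, Scg2 and Vgf came close to the threshold without passing it. Scg3 was at 0.26 ± 0.05 (adjusted p = 0.0586), with both KR libraries, at 737 and 675, above both WT ones, at 635 and 549. Scg2 was at 0.24 ± 0.05 (adjusted p = 0.0624), higher in KR within each feeding state. Vgf was at -0.36 ± 0.07 (adjusted p = 0.0533), lower in KR within each feeding state. The calls for these genes depend on the fit: Scg2 and Scg3 passed in 4 of the 6 alternatives and Vgf in 3. Scg5 (0.14 ± 0.05, adjusted p = 0.228), Chgb (0.12 ± 0.05, adjusted p = 0.324), Pcsk1 (0.11 ± 0.06, adjusted p = 0.369) and Chga (0.09 ± 0.05, adjusted p = 0.461) did not pass either. Cpe and Pam had values of -0.04 ± 0.05 each, and the sign of Cpe flipped to 0.01 when the libraries were rescaled by the median of ratios and with limma-voom. Pam likewise turned positive, to 0.0014, with limma-voom.

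Before any test, 8 of the 10 genes were higher in KR in the fasted pair and 7 in the refed pair, at median log2 ratios of 0.13 and 0.11. Over all tested genes the medians were -0.03 and -0.05. Both libraries of KR lay apart from both of WT for 4 genes, beside 16.7% of all tested genes (5.43% higher, 11.3% lower). Pcsk2, Chgb and Scg3 were the higher ones and Pam the lower one. In both feeding states 8 of the 10 genes had bounds that parted between KR and WT, beside 15.3% of genes in the refed pair and 22.9% in the fasted pair. Abundant genes have narrow bounds, so these counts too speak of counting error and not of animals. The like share of abundant genes was not computed. These pairs have no replicate check.

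**Figure D4:**
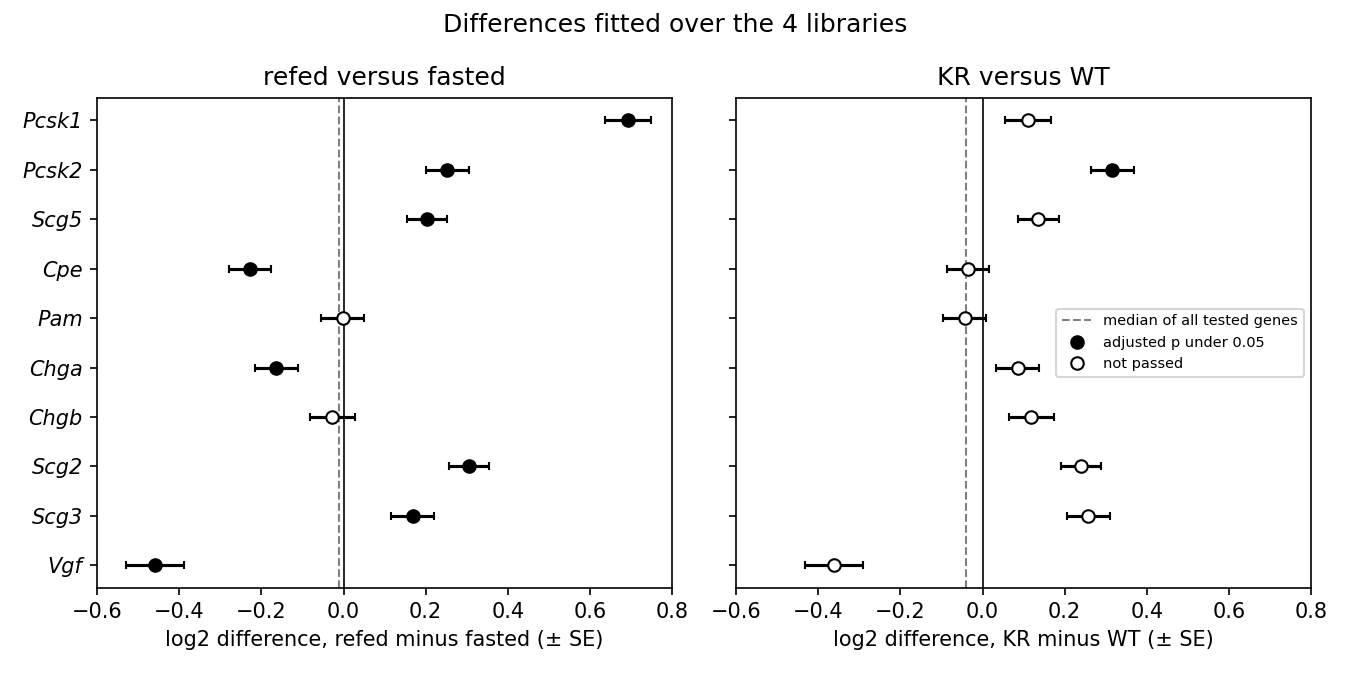
Log2 differences fitted over the 4 libraries with their moderated standard errors, refed minus fasted on the left and KR minus WT on the right, with filled points for an adjusted p under 0.05 and a dashed line at the median of all tested genes. With refeeding 8 genes pass in both directions, from 0.69 for Pcsk1 to -0.46 for Vgf, whereas between genotypes Pcsk2 alone passes, at 0.32.

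Other genes of prohormone processing and granule maturation, a list of 30, gave 28 tested genes, 4 of the 30 under an older symbol. With refeeding 10 rose, 11 fell and 7 did not pass, beside 27.7% of all tested genes that rose and 29.2% that fell. The list stood at a median log2 difference of -0.05, beside -0.01 over all genes and 0.08 over the 10 genes. Median refeeding log2 ratios of the 10 genes, which moved in both directions, were 0.08 in KR and 0.10 in WT. Over genes averaging an FPKM of 100 or more they were 0.21 and 0.26. That subset lacks Vgf and was not matched to the 10 genes in abundance. Among relatives of the convertases, Pcsk4 (-0.56 on the log2 scale) and Pcsk6 (-0.40) fell, Pcsk7 rose by 0.23, and Furin, the convertase of the constitutive pathway, stood at 0.13 ± 0.07 and did not pass. Of other processing enzymes, Qpct, which makes pyroglutamate at peptide ends, rose by 0.47 and Ctsl, a lysosomal protease gene, by 0.28. Cltrn, a beta-cell membrane protein gene listed as Tmem27, rose the most in the list, by 0.62 ± 0.06 (adjusted p = 6.38e-05), with an FPKM of 686 in refed KR and 612 in refed WT, against 475 in fasted KR and 372 in fasted WT.

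Ptprn (-0.31) and Ptprn2 (-0.43), which encode phosphatase-like proteins of the granule membrane, fell, as did the luminal protein gene Resp18 (-0.14) and the sorting receptor gene Sort1 (-0.40). Rab3a (-0.55), a GTPase gene of granule exocytosis, the calcium sensor gene Syt7 (-0.28), Baiap3 (-0.39) and Hid1 (-0.23), a gene of granule formation, fell too. Among those that rose were Slc30a8, the granule zinc transporter, by 0.22, the granule formation genes Ccdc186, by 0.24, and Eipr1, by 0.28, the arfaptin gene Arfip2, by 0.20, and the proton pump accessory genes Atp6ap1, by 0.18, and Atp6ap2, by 0.16. Without the trend, and also with no filter on low values, Pcsk7, Resp18, Arfip2, Atp6ap1 and Atp6ap2 lost the refeeding call. Ccdc186 lost it with no filter only. Listed genes at least 1.5-fold apart between refed and fasted were Pcsk1n in KR (log2 ratio -0.83), and Pcsk4 (-0.76), Cltrn (0.72) and Rab3a (-0.59) in WT. Of all tested genes, 12.9% in KR and 16.1% in WT were that far apart.

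Between genotypes 1 of these 28 genes passed, beside 1.26% of all tested genes and 4.81% of abundant ones. This was Slc30a8, which was higher in KR by 0.29, and the list median was 0.04. Pcsk1n was at 0.27 ± 0.09 (adjusted p = 0.222), with log2 ratios of 0.03 between the refed and 0.50 between the fasted libraries. The precursors on which the enzymes act were listed as 20 prohormone genes, of which 13 were tested. With refeeding 7 of the 13 passed, a share near the 56.9% of all tested genes. Of these 5 rose, which were Iapp by 0.56, the PP-cell hormone gene Ppy by 0.55, Pyy by 0.51, Nucb2 by 0.31 and Ucn3 by 0.15. All but Nucb2 are also among the cell markers counted above. The scarce Cartpt (-0.37) and Vip (-0.72) fell, Cartpt in 4 and Vip in 2 of the 6 alternative fits. The ratio of Vip was -1.35 in KR and -0.09 in WT, so its fall rests on the refed KR library, at an FPKM of 0.0695. Between genotypes 3 of the 13 were higher in KR, beside 0.602% of all tested genes, Ins1 by 1.34, Iapp by 0.36 and Ucn3 by 0.30, and 0 fell. Of the genes averaging an FPKM of 100 or more, 1.75% were higher in KR. These 3 hormone genes are also among the 5 beta-cell markers that were higher in KR, so the calls are the same ones. All 3 genotype calls, and that of Slc30a8, were lost when low genes were not filtered out and also when the trend was dropped. Ins1 lost it also with a robust prior. With no filter Nucb2 alone of the prohormone genes kept its refeeding call. Ppy, Pyy, Nucb2, Ucn3, Cartpt and Vip were named after their values were seen. The beta-cell precursor gene Iapp had an FPKM of 66975 in refed KR and 52784 in refed WT, against 46126 in fasted KR and 35463 in fasted WT. Gcg, the glucagon precursor gene, was at 24882 and 26161 in refed KR and WT, and at 26030.5 and 21258 in fasted KR and WT, and Sst, the somatostatin precursor gene, was at 3131, 2978, 3151 and 2652 in the same order. Ins1 had an FPKM of 12196 in refed KR and 3498 in refed WT, and of 7966 in fasted KR and 4319.8 in fasted WT. Ins2 was at 201043 in refed KR, 121397 in refed WT and 122864 in fasted WT.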

How the data were processed

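RNA of pooled islets was enriched by poly-A selection and made into Illumina TruSeq libraries, per the labels' protocols. Reads were handled with bcl2fastq 1.8.4 and TopHat2 2.0.4 with mouse build mm9 as genome, per the submitters' processing notes. In the deposited tables, values are FPKM with lower and upper bounds and a status, per the file headers. The program and annotation behind them: not given in the sources used here. Coordinates are printed as deposited.

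Rows of 1 symbol were summed, and any value whose status was not OK was set to missing, which concerned 189 of 23235 symbols in at least 1 library. Tests used log2(FPKM + 1), which understates the change of low genes, for 11953 genes averaging an FPKM of 1 or more, and the R 4.3.3 package limma 3.58.1 with its trend option, 1 residual degree of freedom and a prior worth 7.58. An adjusted p under 0.05 was a call. Standard errors for counting were the gap from the FPKM to its upper bound divided by 2, and counting intervals as 1.96 of them. The squared ratio of FPKM to that error gave implied fragments, 11074655 in refed KR, 18096556 in refed WT, 25710982 in fasted KR (without Ins2) and 26407138 in fasted WT. In each pair of libraries, genes were described by their log2 ratio, with no p.

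The 10 genes and the lists were chosen with earlier results of these data known. The text names all 10 genes, listed processing genes that passed or were 1.5-fold apart in a pair, 5 main hormone genes, and a few markers. Furin, Th, Dbh, Pnmt, Ttr, Krt7 and Rbp4 were named after their values were seen. Protein sequences were not used here. Alternatives were a pseudocount of 0.1, no filter, no trend, a robust prior, rescaling by the median of ratios, and limma-voom on implied fragments scaled by trimmed means.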

Additional observations from a re-analysis of the deposited data

Results flagged for a closer look

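Chgb is the gene whose refeeding ratio had opposite signs in the genotypes, each with a counting interval that excludes 0. The log2 ratio of refed over fasted was 0.0399 in KR (interval 0.02 to 0.06) and -0.0947 in WT (interval -0.11 to -0.08). With 1 library per group this difference was not tested.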

How the results depend on the processing

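With refeeding, 8 of the 10 genes were called, against 2 with no filter on low values, where 17451 genes enter the fit and 6 of the 10 had an unadjusted p under 0.05, and 5 without trend. The other alternatives stayed within 1.5 times of 8. Between genotypes, 1 of the 10 was called, against 4 with a pseudocount of 0.1, 0 with no filter (3 at an unadjusted p under 0.05), 0 without trend (4 at an unadjusted p under 0.05), 4 with a robust prior, 3 after rescaling by the median of ratios and 7 with limma-voom. Over all genes, 151 were called between genotypes (47.7% higher in KR), against 0 with no filter (1892 at an unadjusted p under 0.05), 5 without trend (60% higher), 228 with a robust prior and 692 with limma-voom (58.2% higher). After rescaling, 86 were higher and 51 lower. The cause of these shifts was not tested. Cpe turned from -0.04 to 0.0056 after rescaling and 0.011 with limma-voom in the genotype comparison. Pam turned to 0.0014 with limma-voom there, to 0.00796 after rescaling in the refed KR and WT pair, and to 0.0092 and 0.0089 with rescaling and limma-voom for refeeding. Of the 28 other processing genes, 15 to 22 were called with refeeding over the 6 alternatives, beside 21, and 0 to 10 between genotypes, beside 1. Slc30a8 was lost there with no filter and without trend. Of the prohormone genes, 1 to 8 were called with refeeding, beside 7, and 0 to 5 between genotypes, beside 3. These list counts were added after the data were seen. The number of the 10 genes at least 1.5-fold apart in each pair did not move with the pseudocount, the filter or the rescaling. No paired analysis was possible because each group holds 1 library, and leaving out a library leaves no residual degree of freedom, so each pair's ratios stand without a test. Depth was lowest in refed KR, which limits Vgf most.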
